A study of Homo sapiens with 2 samples.

Results

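EGR1 intervals near chromosome ends are the called intervals whose summit lay within 3 Mb of an end of their chromosome, in a chromatin immunoprecipitation and sequencing (ChIP-seq) list from t-HESC cells. They were chosen by position alone, on 17 autosomes: 1, 2, 3, 5 to 12, 14 to 16 and 20 to 22. Both ends were used, except on the acrocentric chromosomes 14, 15, 21 and 22, whose short arms consist mostly of repeated sequence and whose long-arm end alone was used. This gave 30 ends, 13 of short arms and 17 of long arms, and 90 Mb of windows. The windows held 586 of the 7709 intervals of the whole list, and they are compared below with the other 5205 intervals of the same 17 chromosomes. Positions are on build GRCh37.

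In the series, EGR1 ChIP and input DNA of sonicated chromatin were each sequenced as 1 library. Both came from t-HESC, which is an immortalised human line of the stromal cells that support the uterine lining. The cells had no treatment and grew in DMEM/F12 with serum and puromycin. Chromatin complexes were pulled down with a commercial EGR1 antibody. There was no replicate, no second condition and no cell without EGR1, so each value describes 1 library. The depth is unknown, since read totals were not used here, and the input library was not analysed here. Intervals in brackets are exact 95% intervals and cover counting error only. They treat called intervals as independent, although neighbours lie close together, so they are too narrow.

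EGR1 is a zinc-finger transcription factor made within minutes to hours of a growth or stress signal. It binds GC-rich DNA, with GCGTGGGCG and GCGGGGGCG as its textbook sites, often in promoters with many CpG pairs. Chromosome ends carry telomere repeats, then a stretch of duplicated subtelomeric sequence in which short reads are hard to place, and then, on many arms, gene-dense and GC-rich bands. Other arms end in gene-poor bands or in arrays of a single gene family, such as olfactory receptors. Sequence of the called intervals themselves was not analysed here, so no interval is shown to hold an EGR1 site.

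To show the kind of sequence at issue, promoters of genes in these end zones were read from RefSeq on GRCh38.p14, a different build from that of the intervals. Promoters were searched for GCGNGGGCG on both strands, which takes in GCGTGGGCG and GCGGGGGCG. Capitals mark the matches, and the CGCCCACGC and CGCCCCCGC forms are matches on the other strand. Each line is read 5′ to 3′ along the gene and stops before the gene's start. The genes are those of a list of end-band genes whose bases before the start held a match. AXIN1 encodes a scaffold of the beta-catenin destruction complex, NOTCH1 a cell-surface receptor, ADARB1 an RNA-editing enzyme and HES4 a transcriptional repressor.
AXIN1, short-arm end of chromosome 16, minus strand, chr16:352724-352973: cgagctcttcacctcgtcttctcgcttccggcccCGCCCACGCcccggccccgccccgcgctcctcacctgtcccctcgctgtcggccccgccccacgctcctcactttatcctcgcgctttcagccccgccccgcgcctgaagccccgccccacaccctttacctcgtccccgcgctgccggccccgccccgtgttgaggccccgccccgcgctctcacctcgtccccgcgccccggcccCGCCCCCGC
NOTCH1, long-arm end of chromosome 9, minus strand, chr9:136546049-136546121: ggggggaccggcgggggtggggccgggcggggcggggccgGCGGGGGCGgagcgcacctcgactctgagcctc
ADARB1, long-arm end of chromosome 21, plus strand, chr21:45074461-45074577: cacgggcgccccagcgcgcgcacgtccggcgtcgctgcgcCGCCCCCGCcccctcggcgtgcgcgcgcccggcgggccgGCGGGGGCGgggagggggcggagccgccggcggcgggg
HES4, short-arm end of chromosome 1, minus strand, chr1:1000239-1000327: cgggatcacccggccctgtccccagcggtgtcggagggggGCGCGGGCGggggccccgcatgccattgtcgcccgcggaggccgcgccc
No interval was placed on these promoters, because positions were not converted between builds. A match describes letters in a window and is not a measured site.

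EGR1 intervals were denser near chromosome ends than elsewhere on the same chromosomes. The end windows held 6.51 intervals per Mb (5.995 to 7.06), and the rest of the chromosomes held 2.297 per Mb (2.235 to 2.36). The ratio was 2.835 (2.599 to 3.09). The windows made up 3.82% of the length of the 17 chromosomes and held 10.1% of their intervals (9.35 to 10.9%). Ends of short arms, with 242 intervals at 6.21 per Mb, and ends of long arms, with 344 at 6.75 per Mb, gave a ratio of 0.920 with an interval that includes 1 (0.777 to 1.09).

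On each of the 17 chromosomes the density was higher at the ends than in the rest, and on 12 of them the interval of the ratio lay above 1. Over full chromosome lengths the ratio was highest on chromosome 21, at 7.64 (4.83 to 11.9), from 32 intervals at its long-arm end and 63 elsewhere. Chromosome 8 followed with 5.995 (4.32 to 8.19), chromosome 16 with 5.09 (3.99 to 6.44) and chromosome 7 with 4.35 (3.18 to 5.86). On chromosomes 3, 6, 10, 12 and 15 the ratios were between 1.15 and 1.90, and their intervals included 1. The lowest was that of chromosome 10, at 1.15 (0.620 to 1.96), so a difference was not detectable there.

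The length of the rest includes unsequenced stretches, and on acrocentric chromosomes it includes the short arm. For those 4 chromosomes the rest was also counted from the first interval on, and the ratio of chromosome 21 was then 4.97 (3.14 to 7.73). Chromosomes 8 and 16 were not recounted, and the intervals of their full-length ratios overlap that one, so these chromosomes are not ranked. Counted from the first interval, the ratio of chromosome 14 was 2.64 (1.60 to 4.14). On chromosome 22 it fell to 1.10 (0.649 to 1.77), and its interval then included 1. On chromosome 15 it was 1.46 (0.742 to 2.60).

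**Figure D1:**
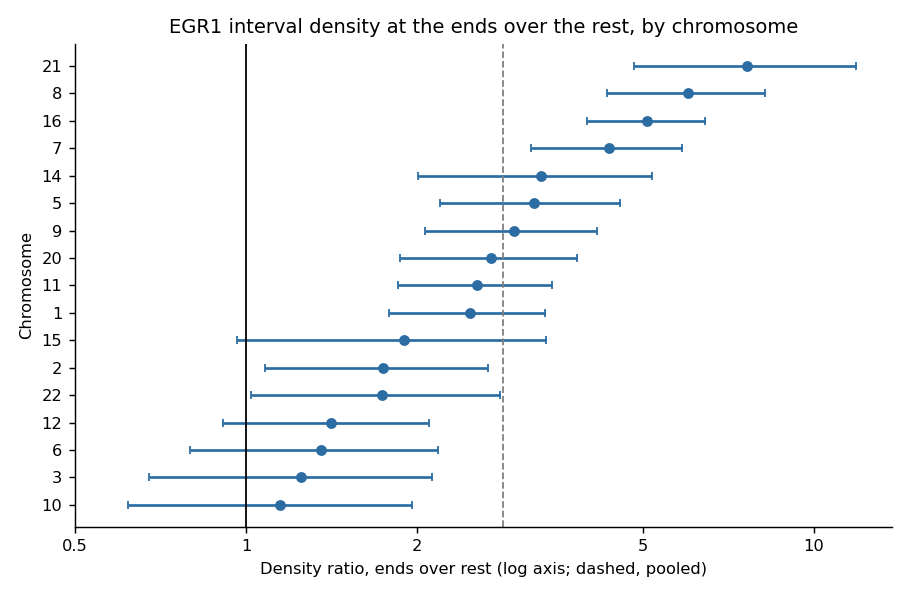
Ratio of EGR1 interval density at the chromosome ends to that in the rest of the same chromosome (log axis), for 17 chromosomes; points are ratios, bars are exact conditional 95% intervals, the solid line marks 1 and the dashed line the pooled ratio. Lengths are full chromosome lengths, which for chromosomes 14, 15, 21 and 22 include the short arm. Every point lies above 1, and the highest are chromosomes 21, 8, 16 and 7; counted from its first interval, chromosome 21 is at 4.97.

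With short and long arms pooled, density fell with distance from the end over the 3 Mb of the windows. It was 7.27 intervals per Mb (6.33 to 8.30) in the first Mb, 6.77 (5.87 to 7.76) in the second and 5.50 (4.69 to 6.41) in the third. The arms taken apart did not each decline step by step. Ends of short arms had 7 (5.64 to 8.59), 4.69 (3.59 to 6.03) and 6.92 (5.57 to 8.51) per Mb in these steps, so the third was as dense as the first. Ends of long arms had 7.47 (6.23 to 8.89), 8.35 (7.04 to 9.85) and 4.41 (3.47 to 5.53). Beyond the window it was 3.63 (2.98 to 4.38) from 3 to 4 Mb and 4.03 (3.35 to 4.82) from 4 to 5 Mb. It was lowest from 7 to 8 Mb, at 2.1 (1.61 to 2.69), and higher again farther in, with 3.77 (3.10 to 4.53) from 10 to 11 Mb. Everything beyond 10 Mb held 2.21 per Mb (2.15 to 2.28). The end windows were 2.097 times as dense as the zone from 3 to 10 Mb (1.87 to 2.35), and that zone was in turn 1.40 times as dense as the remainder (1.29 to 1.52).

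The very tip was sparse. The outermost 250 kb of the 30 ends held 19 intervals, 2.53 per Mb (1.52 to 3.96), near the density of the rest. The next 250 kb held 66, or 8.80 per Mb (6.81 to 11.2), and 500 to 1000 kb held 133, or 8.87 per Mb (7.42 to 10.5). Only 8 ends had an interval in their outermost 250 kb. The median distance from an end to its outermost summit was 338.6 kb over the 29 ends with an interval, with a range of 50.1 to 2017 kb. Gaps and read mappability at the tips were not analysed here, and their part in the sparse tips was not tested.

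The interval nearest to any end lay on chromosome 1 at chr1:249200491-249200710, 50.1 kb from the long-arm end, with a score of 26. The score is the authors' own value per summit, of unknown unit, and is used here only to describe intervals within this list. The next outermost lay on chromosome 8 at chr8:146277908-146278131, 86.0 kb from its long-arm end, with a score of 22. On chromosome 16 the outermost, at chr16:127301-127961, lay 127.6 kb from the short-arm end and had a score of 53. At the other extreme, the outermost interval on the short arm of chromosome 9 lay 2017 kb from its end, at chr9:2016635-2016852, with a score of 18.

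**Figure D2:**
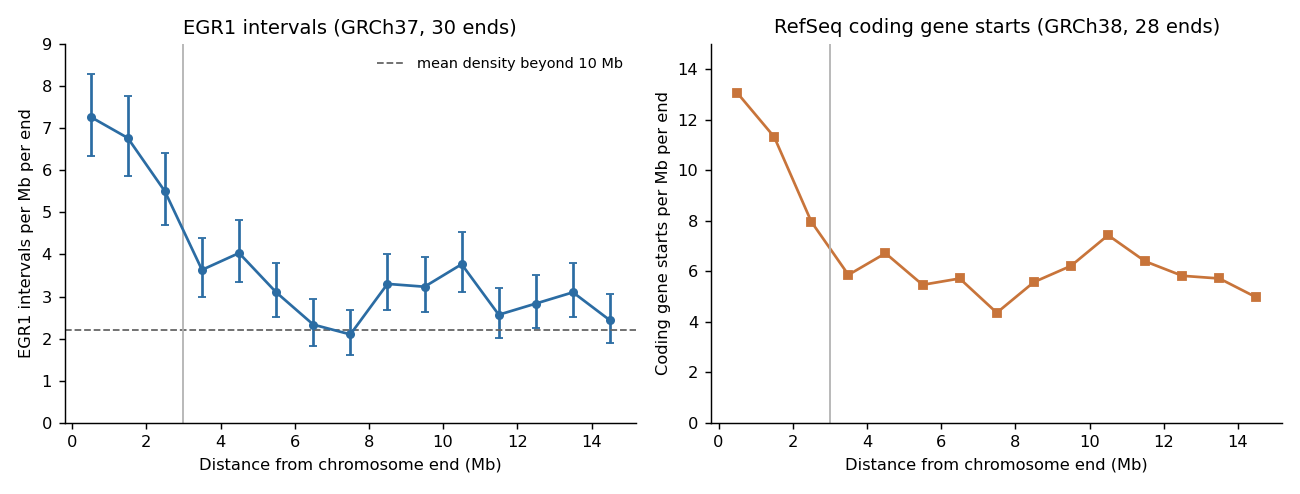
Left, EGR1 intervals per Mb and per end by distance from the chromosome end, in 1 Mb steps over 30 ends on GRCh37, with exact Poisson 95% intervals, and the mean density beyond 10 Mb as a dashed line. Right, starts of coding genes in the RefSeq promoter table per Mb and per end over 28 ends on GRCh38, counted separately; the grey lines mark 3 Mb, and both profiles are highest in the first Mb.

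The ends differed widely among themselves. Counts per 3 Mb window ran from 0 to 54, with a median of 13. The 5 densest ends held 230 of the 586 intervals (39.2%), and the 10 densest held 390 (66.6%). Of the 30 ends, 24 were denser than the rest of their own chromosome, 15 of them with an interval above 1. The other 6 were sparser, 2 of them with an interval below 1.

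The short-arm end of chromosome 16, which carries the alpha-globin cluster, was the densest, with 54 intervals (40.6 to 70.5). Its 18 intervals per Mb were 5.67 times the density of the rest of that chromosome (4.15 to 7.61). Scores there ran from 15 to 164 with a median of 24. The long-arm end of chromosome 16 held 43 intervals (31.1 to 57.9), and its ratio was 4.51 (3.19 to 6.24). Chromosome 16 was the only one of the 13 chromosomes with 2 windows that held over 40 intervals at both ends.

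Intervals at the long-arm end of chromosome 8 numbered 45 (32.8 to 60.2), at 10.6 times the density of the rest of that chromosome (7.48 to 14.7), the highest ratio of the 30 ends. Equally many, 45, lay at the short-arm end of chromosome 11, where the HRAS gene and an imprinted gene cluster lie. Of these, 28 lay in the outermost Mb (18.6 to 40.5), which was the densest Mb of the end windows. The short-arm end of chromosome 7, which holds the growth factor gene PDGFA, had 43 intervals, 7.20 times the density of its rest (5.10 to 9.93). The long-arm end of chromosome 9 had 37 intervals, of which 25 (16.2 to 36.9) lay between 1 and 2 Mb from the end.

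At the sparse extreme, no interval was called in the first 3 Mb of chromosome 3. A count of 0 allows up to 3.69 intervals there, and the ratio to the rest has an upper limit of 0.661. The short-arm ends of chromosomes 9 and 10 held 2 intervals each, and the long-arm end of chromosome 11 held 3, at 0.319 times the density of its rest (0.0656 to 0.940). The short-arm end of chromosome 2 held 4, which formed 2 pairs of close neighbours. Apart from the short arm of chromosome 3 and the long arm of chromosome 11, the intervals of these sparse ends' ratios included 1.

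**Figure D3:**
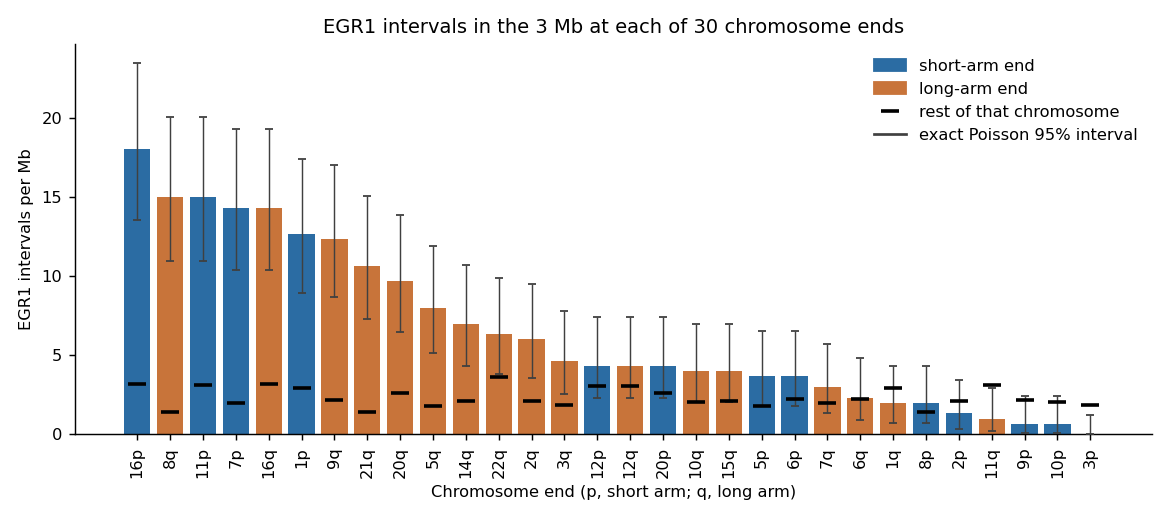
EGR1 intervals per Mb in the 3 Mb at each of 30 chromosome ends, ordered by density; bars are short-arm (p) and long-arm (q) ends, thin lines are exact Poisson 95% intervals, and black dashes are the density in the rest of the same chromosome. The bars fall from 18 per Mb at 16p to 0 at 3p, and 6 ends lie below their dash.

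The 2 ends of a chromosome often differed from each other. On chromosome 11 the short-arm end held 45 intervals and the long-arm end 3, a ratio of 15 (4.82 to 75.5). On chromosome 9 the order was the opposite, with 2 on the short arm and 37 on the long arm, a ratio of 18.5 (4.77 to 158). Chromosome 8 had 6 and 45, chromosome 7 had 43 and 9, and chromosome 1 had 38 and 6. The interval of the ratio of the denser to the sparser end lay above 1 on 10 of the 13 chromosomes with 2 windows. The remaining 3 were chromosome 6, with 11 and 7, chromosome 12, with 13 at each end, and chromosome 16, with 54 and 43. The short-arm end was the denser one on 5 chromosomes and the long-arm end on 7.

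Dense megabases were common at the ends. Of the 90 megabases in the windows, 24 (26.7%, 17.9 to 37.0%) held 10 or more intervals. In the rest, 89 of 2261 megabases did (3.94%, 3.17 to 4.82%), an odds ratio of 8.86 (5.06 to 15.1). Megabases with no interval, which include unsequenced gaps, made up 20% at the ends (18 of 90) and 39.8% in the rest (900 of 2261). Among megabases with at least 1 interval, 33.3% at the ends and 6.54% in the rest held 10 or more, an odds ratio of 7.13 (3.98 to 12.5). Such shares depend on interval density, so these odds ratios in part restate the density excess on another scale.

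No difference in score between end intervals and the rest was detectable. The median score was 26 at the ends (25 to 27; quartiles 20 and 35) and 26 in the rest (25 to 26; quartiles 20 and 37). The ends had the lower median on 9 chromosomes, the higher on 7 and the same on 1. A score of at least 57, the 90th percentile of the whole list, was reached by 52 end intervals, 8.87% (6.70 to 11.5%), and by 10.5% of the rest (9.69 to 11.4%). The odds ratio was 0.829 (0.603 to 1.12). A score above 100 was found in 11 end intervals, 1.88% (0.941 to 3.33%), and in 2.31% of the rest (1.92 to 2.75%), an odds ratio of 0.811 (0.392 to 1.52). These intervals include 1, so ratios within the limits given remain possible. The density excess was also seen among higher-scored intervals alone. With a score of at least 26 the density ratio was 2.82 (2.49 to 3.18), and with a score of at least 57 it was 2.39 (1.77 to 3.19).

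Within ends that held 20 or more intervals, median scores lay between 23 and 31. The highest was at the short-arm end of chromosome 7, where it was 31 (24 to 33), and the lowest were at the long-arm end of chromosome 9, 23 (19 to 27), and the short-arm end of chromosome 11, 23 (21 to 28). Their intervals overlap. The densest end, on the short arm of chromosome 16, had a median of 24 (23 to 30).

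The highest-scored end interval lay at chr7:156685919-156686537, 2453 kb from the long-arm end of chromosome 7, at one of the sparser ends, with a score of 174. That score ranks 18 in the whole list. The second, with a score of 172, lay at chr8:681126-682176 near the short-arm end of chromosome 8, whose end window held only 6 intervals. The third lay at chr16:2014138-2015105 on the short arm of chromosome 16, with a score of 164, and had a neighbour 0.456 kb away. An interval at chr16:89766454-89767382 near the long-arm end of chromosome 16 scored 134. On the short arm of chromosome 5, chr5:611611-612380 scored 129.

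The next 5 scored between 115 and 124. They were chr12:1099454-1100135 with a score of 124, chr11:809015-809913 and chr16:2186037-2186445 with 119 each, chr8:146012095-146012584 with 116 and chr20:61568822-61569447 with 115. The 10 highest-scored intervals lay at 9 ends, and only the short arm of chromosome 16 held more than 1 of them. All 10 were wider than the median of the rest. Width rose with score in both groups, with a Spearman correlation of 0.598 at the ends and 0.644 in the rest. A neighbour within 1 kb was found for 2 of the 10, against 31.4% of all end intervals. Which genes lie at these 10 intervals was not analysed here.

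**Figure D4:**
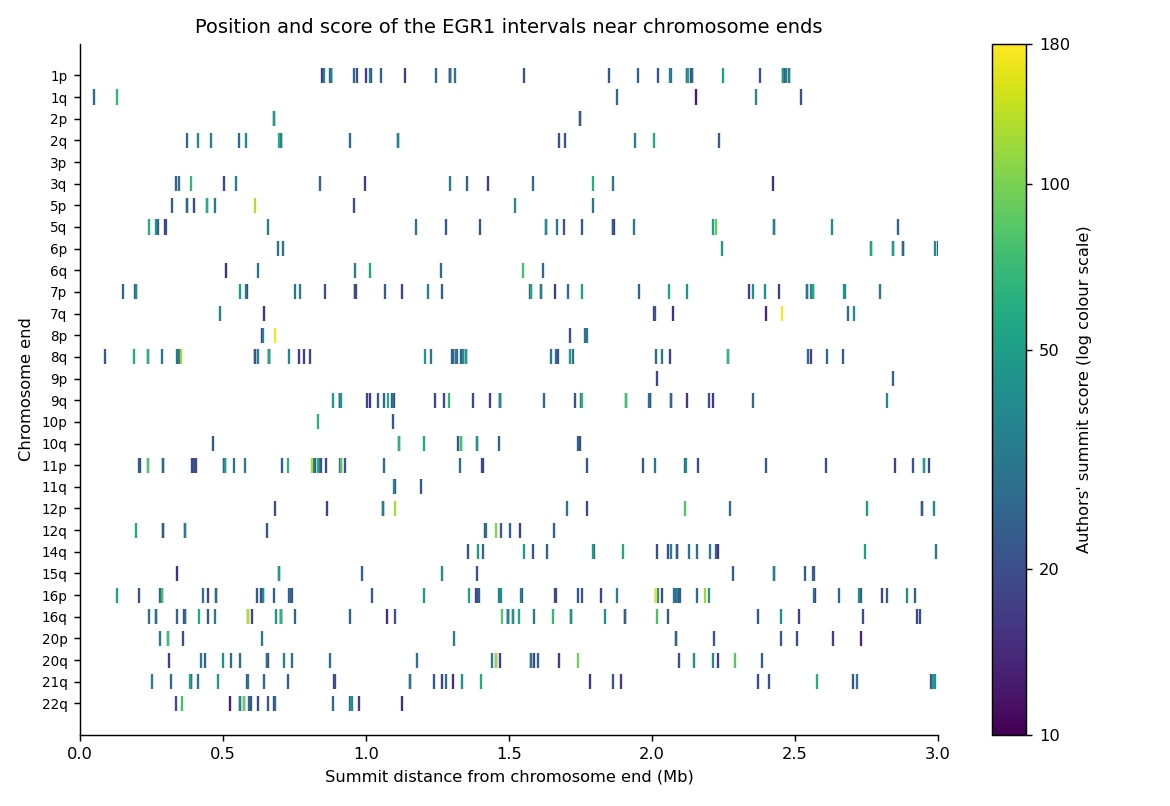
Each of the 586 EGR1 intervals near chromosome ends as a tick at the distance of its summit from the end (x axis, Mb), one line per end (p, short arm; q, long arm), coloured by the authors' summit score on a log colour scale. Ticks crowd at 16p, 16q, 8q, 11p and 7p, the line for 3p is empty, and the yellow ticks with the highest scores stand at 7q, 8p and 16p.

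Widths differed little in the middle of their range. The median width was 348.5 bp at the ends (332 to 364) and 342 bp in the rest (336 to 348), with quartiles of 259.5 and 495.75 bp against 255 and 488 bp. The ends had the wider median on 8 chromosomes and the narrower on 9. Intervals of 800 bp or more made up 7.85% at the ends (5.80 to 10.3%) and 5.59% in the rest (4.98 to 6.25%), an odds ratio of 1.44 (1.02 to 2.00). This was 1 of 7 shares compared and the interval is not adjusted for that number. It included 1 in 6 of the 17 cases where a chromosome was left out: chromosomes 1, 7, 8, 9, 11 and 22, with odds ratios of 1.27 to 1.41. With a limit of 600 bp the odds ratio was 1.26 (0.993 to 1.59). The widest end interval, 1675 bp with a score of 67, lay at chr9:139459106-139460780. The next, 1578 bp with a score of 93, lay at chr22:50731927-50733504, 572.3 kb from the long-arm end of chromosome 22.

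**Figure D5:**
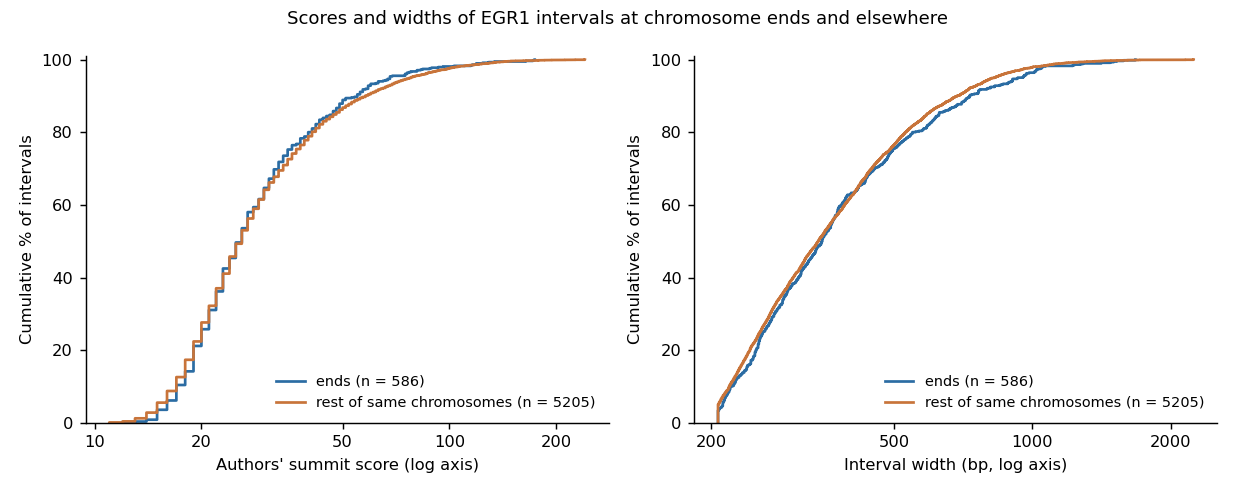
Cumulative share of EGR1 intervals (%) by the authors' summit score (left, log axis) and by width in bp (right, log axis), for 586 intervals at chromosome ends and 5205 in the rest of the same chromosomes. The curves nearly coincide, with medians of 26 and 26 for score and 348.5 and 342 bp for width.

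Adjacent intervals lay closer together at the ends. Gaps and shares with a neighbour depend on density, so they in part restate the density excess. The median gap between adjacent intervals was 37.0 kb at the ends and 109 kb in the rest. A neighbour within 10 kb was found for 49.3% of the end intervals (45.2 to 53.5%) and 36.5% of the rest (35.2 to 37.8%). Within 1 kb the shares were 31.4% (27.7 to 35.3%), or 184 of 586, and 26.2% (25 to 27.4%), an odds ratio of 1.29 (1.07 to 1.56). The share was higher at the ends on 13 of the 17 chromosomes. The mean of the differences within chromosomes was 4.58 percentage points, with an SD of 12.5 over the 17.

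This difference in close neighbours did not hold under each way of counting. Where only megabases with 10 or more intervals were compared, ends against rest, the odds ratio was 1.20 (0.936 to 1.55). Intervals up to 1 kb apart were also joined and each site counted once, with the 1 site that crosses the 3 Mb limit counted at the ends. Then 83 of 485 end sites held several intervals (17.1%) and 632 of 4474 did so in the rest (14.1%), an odds ratio of 1.255 (0.964 to 1.62). After joining, the end windows held 5.39 sites per Mb and the rest 1.975. By the summit of the highest-scored interval of each site, the density ratio was 2.73 (2.48 to 2.999).

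Counting only members inside the windows, a single interval made up 403 of the 485 end sites. Another 66 were pairs, 13 were groups of 3 and 3 were groups of 4. The largest groups lay at chr1:875366-878784, chr7:2556226-2560222 and chr8:145046658-145049739. The site on chromosome 1 had scores of 23, 31, 35 and 26 over 3419 bp. That on chromosome 7 had 39, 31, 32 and 26 over 3997 bp, and that on chromosome 8 had 29, 29, 23 and 31 over 3082 bp. Their members scored 23 to 39, which is usual at the ends. All end intervals together had a median score of 26 and an upper quartile of 35. Whether the caller divided 1 enriched stretch into several intervals was not tested.

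The 3 Mb limit itself cut through one such site. On the short arm of chromosome 6, the interval at chr6:2999572-2999888, 256 bp inside the limit, had a score of 23. Its neighbour at chr6:3000392-3000619, 448 bp outside, had a score of 20. The next nearest inside lay 6460 bp from the limit on chromosome 14, with a score of 31, and the next outside lay 12928 bp from it on chromosome 11, with a score of 23.

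Starts of coding genes were also denser near chromosome ends. They were counted in the RefSeq promoter table on GRCh38.p14, with 1 start per gene, on 16 of the 17 chromosomes, chromosome 8 not being analysed here in this way. The end windows of that build held 906 starts, 10.8 per Mb, and the rest held 10996, 5.19 per Mb, a ratio of 2.08 (1.94 to 2.22). On the same 16 chromosomes, the EGR1 intervals on GRCh37 gave 6.37 and 2.35 per Mb, a ratio of 2.71 (2.47 to 2.96). The values come from different builds and an incomplete table, and the difference between the ratios was not tested. The ratio for gene starts was above 1 on 15 of the 16 chromosomes. Of these, chromosomes 3, 7, 10, 11, 14 and 15 had an interval that included 1. On chromosome 6 the ratio was 0.855 (0.565 to 1.24). From the first to the third Mb gene starts numbered 13.1, 11.3 and 7.96 per Mb and end, and from 3 to 4 Mb 5.86. With arms pooled, gene density over 28 ends thus moved with interval density over 30 ends by distance from the end. Gene starts were not split by arm, and the interval profile was not repeated without chromosome 8. The part of gene density in the excess of intervals was not tested.

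The sparse and the dense ends are set beside these gene counts. The short-arm end of chromosome 16, with 54 EGR1 intervals, had 98 coding gene starts, the most of the 28 ends. The long-arm end of chromosome 9 had 37 intervals and 80 starts, and the short-arm end of chromosome 11 had 45 intervals and 48 starts. The short-arm end of chromosome 3, with no interval, had 3 starts, and the long-arm end of chromosome 11, with 3 intervals, had 7. Some ends did not follow this order. The long-arm end of chromosome 1, where a large array of olfactory receptor genes lies, had 6 intervals and 52 starts. The short-arm end of chromosome 20, which holds beta-defensin genes, had 13 intervals and 44 starts. At the short-arm end of chromosome 7 there were 43 intervals and 31 starts.

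Pooled over the 16 chromosomes, promoters in the end zones held sequences of the form GCGNGGGCG more often than those in the rest. The 4 promoters printed above were chosen for holding a match and are not evidence of this. GCGNGGGCG occurred in 194 of 906 coding promoters in the end windows (21.4%, 18.8 to 24.2%) and in 1309 of 10996 in the rest (11.9%, 11.3 to 12.5%), an odds ratio of 2.02 (1.69 to 2.39). Over all 15843 coding promoters of the table it occurred in 12.6%. Motif and GC values were not compared within chromosomes, which contributed unequally to the 2 groups. Chromosome 16 gave 141 of the 906 end promoters and 470 of the 10996 in the rest. The part of chromosome in these differences was not tested. The window searched was the 250 bases before and 50 bases after the start. GCGGGGGCG alone occurred in 10.9% at the ends and 6.38% in the rest, and GCGTGGGCG in 1.99% and 1%. The median GC content of the same promoters was 69.7% at the ends (quartiles 62.0 and 76.0%) and 62.0% in the rest (quartiles 52.7 and 69.7%). Base composition thus moved with the motif share, and its part in it was not tested.

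Of 25 genes tied to EGR1 in general knowledge, 16 were matched in the table and 12 of these lay on the 16 chromosomes. Of the 12, 1, PDGFA, started in an end window, where 7.61% of all coding starts on these chromosomes lay. Its promoter held no match to GCGNGGGCG, which says only that these letters are not in that window. Of 31 genes listed for their place in end bands, 19 were matched and 16 started in an end window, which their choice fixes. A match was found in 5 of these 16, AXIN1, NOTCH1, ADARB1, HES4 and COL6A2, a collagen VI gene whose match was not wholly before the start. Of all coding promoters in the end windows, 21.4% held a match, and 5 of 16 is too few to tell from that share. Of 12 decidualization genes, 10 were matched and 7 of these lay on the 16 chromosomes, with 0 in an end window. At a background of 7.61%, such small lists say little about either group of genes.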

How the data were processed

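Intervals and summits of 1 EGR1 ChIP-seq library were used as deposited. Build GRCh37.p2, the aligner BWA and the peak callers MACS and MACS2 (version 2.1.0) are named per the submitters' processing notes. Options, thresholds and the treatment of duplicate reads are not stated there, and libraries were amplified by PCR. The positions (unit: other) are the authors' own, as is the score per summit, deposited with no unit. Starts are printed 1-based, and chromosome lengths are those of GRCh37. End windows were 3 Mb.

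Density ratios have exact conditional binomial intervals, densities exact Poisson, shares exact Clopper-Pearson, odds ratios exact conditional and medians exact order-statistic intervals, all at 95%. The intervals of density and odds ratios were tested on simulated data drawn as independent counts. Clustering of called intervals was not simulated, so that test cannot show how far the intervals are too narrow here. Intervals were computed with scipy 1.17.1, numpy 2.4.6 and pandas 2.3.3 under Python 3.11.15, and plots drawn with matplotlib 3.10.9.

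RefSeq promoters (GRCh38.p14, 35116 starts of 27305 genes) were analysed on their own build, keeping for each gene the start farthest upstream. Chromosomes 4, 13, 17, 18, 19 and X were left out. Named intervals were the 10 highest-scored, the outermost, the widest, those at the 3 Mb limit, the sites of most intervals and the densest and sparsest ends. Members and lists were chosen with earlier results of these data known.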

Additional observations from a re-analysis of the deposited data

How the results depend on the processing

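The density ratio of ends to rest stayed above 1, with an interval above 1, under all 28 alternatives run (2.097 to 3.42). It was lowest against the zone from 3 to 10 Mb and highest when lengths were counted between the first and last interval. That count takes interval-free tips out of the window length, and the whole empty window on the short arm of chromosome 3. This raises the ratio by construction, so the highest value is no separate support. The same count also takes acrocentric short arms out of the rest. Without single chromosomes it was 2.57 (chromosome 16 left out) to 2.96. The difference in median score was -1 to 0.147 and that in median width 4.5 to 11.3 bp under 20 alternatives each. The odds ratio of a neighbour within 1 kb was 1.29 and kept an interval above 1 without any single chromosome (1.25 to 1.35). Its interval included 1 with 5 Mb windows (1.16), with a limit of 500 bp (1.23), in megabases with 10 or more intervals only (1.20) and over joined sites (1.25), and the cause was not tested. The limits of 500 and 2000 bp, the dense megabases, the joined sites as units, the acrocentric lengths and all alternatives on width of 800 bp were chosen after seeing the data. Removal of unsequenced bases, and gene or motif shares at the intervals, were not run, since no genome of GRCh37 was used here. With 1 library of unknown depth, no value could be set against the spread between cultures. No paired analysis was possible because there is 1 ChIP library.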
